A study of Mus musculus with 26 samples.

Results

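The comparison of regulatory T cells (Treg, CD4+Foxp3+) with conventional T cells (Tconv, CD4+Foxp3-) from the central nervous system (CNS) of control mice rests on 7 of the 26 samples of a bulk RNA sequencing series, those labelled Treg_CNS_Ctrl (3) and Tconv_CNS_Ctrl (4). All mice were C57BL/6 with active EAE (experimental autoimmune encephalomyelitis), in which T cells attack the myelin of the CNS as in multiple sclerosis, and the cells were taken at day 14. Control mice carried Foxp3Cre-ERT2, a Cre recombinase in the Foxp3 locus that acts only in the presence of tamoxifen, and all mice received tamoxifen from day 7 to day 14, so that the control cells carry the Cre and the drug as well. Beside these, 6 control libraries from the draining lymph node (dLN; 3 Treg, 3 Tconv) and 7 CNS libraries of Foxp3Cre-ERT2 x Tnfrsf1bFlox/Flox mice (icKO; 3 Treg, 4 Tconv), whose TNF receptor gene Tnfrsf1b is targeted in Treg on tamoxifen, are used for comparison. The titles call each sample a mouse; age, sex and any pooling of animals are not stated in the labels. The deposited names of 2 of the 4 Tconv_CNS_Ctrl libraries (replicates 3 and 4) carry the code that other groups use for the other genotype. The main calls and counts that change without these 2 libraries are therefore given both ways.

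Treg are the CD4 T cells that hold back immune responses. Their lineage factor Foxp3 works with Ikzf2 and Ikzf4, they take up IL-2 through the receptor chain Il2ra, and they act through contact molecules such as Ctla4 and through the adenosine-forming enzymes Entpd1 (CD39) and Nt5e (CD73). In EAE, Tconv cells of the Th1 and Th17 type enter the CNS and recruit monocytes and neutrophils, while Treg gather there and limit the disease. The inflamed CNS also holds microglia, its resident macrophages, and these cells share several receptors and response genes with Treg.

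The 7 libraries held 13.2 to 18.53 M expected counts, and 11089 to 14259 of 24848 listed genes were above 0, with more genes in the Treg libraries (12801, 13233 and 14259) than in 3 of the 4 Tconv libraries. Each replicate is taken to be 1 mouse, as its title says. Levels are counts per M counts after TMM normalisation (CPM), averages are given ± SD over the libraries of a group (n = 3 or 4), log2 fold changes are Treg over Tconv ± SE, and a called gene is one with an adjusted p (Benjamini-Hochberg, edgeR's quasi-likelihood test) under 0.05. CPM values of dLN libraries come from a separate normalisation with 13 libraries, so they are set beside the CNS values only as a guide to level.

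Foxp3 (chromosome X, 7573644 to 7595245, plus strand, GRCm38) separated the groups as the labels say, which checks the sort on Foxp3 and is no finding. It was at 23.7, 23.5 and 59.9 CPM in the 3 Treg libraries and at 0.863, 0.701, 1.48 and 0.37 CPM in the 4 Tconv libraries, a log2 difference of 5.37 ± 0.56, adjusted p = 0.0011. The groups did not overlap, and Treg replicate 3 stood above replicates 1 and 2. Both groups held T cell receptor and signalling genes: Cd3e was at 921, 892 and 875 CPM in Treg and 1356, 1238, 1244 and 1079 CPM in Tconv libraries, and did not pass the test (-0.46 ± 0.13, adjusted p = 0.064). Cd4 itself was lower in the Treg libraries, at 763, 742 and 682 against 1432, 1179, 1225 and 1256 CPM (-0.8 ± 0.13, adjusted p = 0.0073).

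Of 11907 genes tested, 1009 (8.47%) were called. In Treg libraries 750 (6.3%) were higher and 259 (2.18%) lower, with a median log2 fold change of 0.02 over all tested genes. The libraries of the 2 groups did not overlap for 748 of the 750 and 258 of the 259, so absence of overlap adds little to a call. The fit without Treg replicate 1 called 539 genes and that without replicate 2 called 374. Without Tconv replicates 3 and 4, whose names disagree, 1017 genes were called, and 705 of the 1009 were called in the same direction. When libraries were scaled to the T cell identity genes in place of TMM, the median over all genes moved to 0.54 and the split moved from 74.3% higher to 97.7% higher (2781 higher, 66 lower), so a fold change below is relative to the typical gene and not to the T cells in the sample. Among called genes described below, Entpd1, Tnfrsf1b, Nfil3, Klrg1, Atp1b1, Havcr2, Pdcd1, Fos, Usp18, Slc16a3, Cd79b and Klrb1c lost their call in a fit of all 26 libraries. That fit includes 1 dLN Tconv library of icKO mice (replicate 3) with 7.78 M counts and 6005 genes above 0. In the fit of 25 libraries without it, each of these genes kept its call. In limma voom Tmie, Retnlg, Nos2, Ccl17 and Klrb1c lost theirs, and in DESeq2 Csf1r and P2ry12. In bulk samples, fewer T cells and less RNA per T cell cannot be told apart.

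To separate genes of T cells from transcripts of other cells, genes were classed by their level in the 6 dLN control libraries, which enter no test of the CNS comparison. Among 8912 genes at 10 CPM or more in dLN Treg or Tconv libraries, 359 were called higher and 247 lower in CNS Treg (6.8% called). Among 693 genes under 1 CPM in both dLN groups, 201 were called higher and 3 lower (29.4% called), and 2302 genes in between gave 190 higher and 9 lower. Genes under 1 CPM in the dLN entered the test only by passing a filter on their CNS level, so their share cannot be set against the 6.8%. Without that filter, 209 of 4046 such genes and 593 of 8917 dLN T cell genes were called. Leaving out 1 library gave 322 calls (Treg replicate 1), 226 (Treg replicate 2), 396 (Tconv replicate 2) and 387 (Tconv replicate 3) in place of 606 in the class of dLN T cell genes. It gave 100, 63 and 114 (Treg replicates 1, 2 and 3) in place of 204 among genes under 1 CPM. Of the 259 genes called lower, 247 were genes of dLN T cells. The class does not split the transcripts cleanly, since Lyz2, a lysozyme of myeloid cells, averaged 287 ± 267 CPM (SD, n = 3) in dLN Treg libraries.

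**Figure D1:**
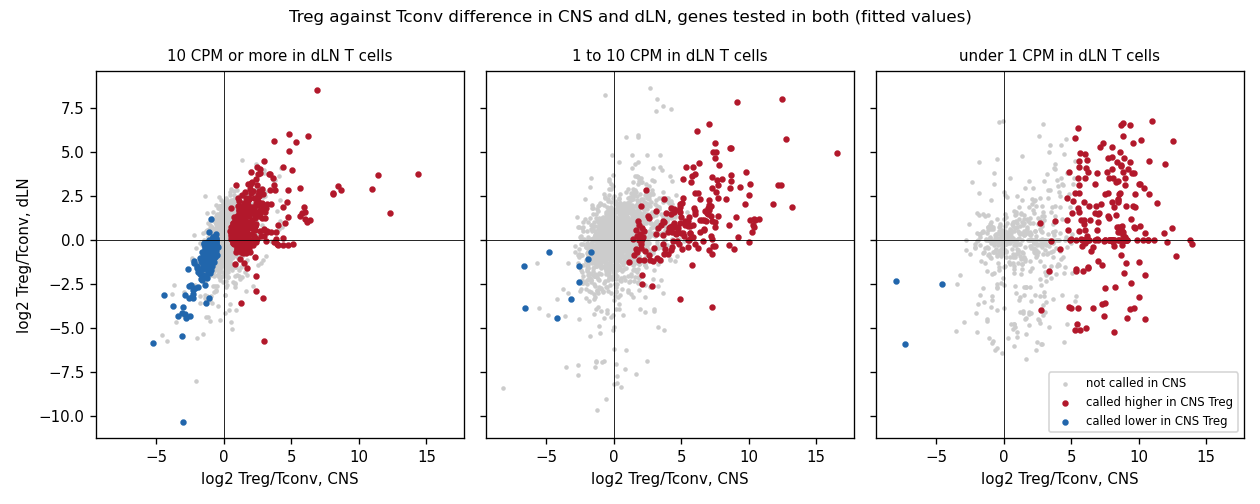
Each point is a gene tested in both tissues, with its fitted log2 Treg over Tconv difference in the CNS on the x axis and in the dLN on the y axis, split by its level in dLN T cells; red and blue points were called higher and lower in CNS Treg. Genes called lower (blue) lie mostly below 0 in the dLN too, while genes called higher that are under 1 CPM in the dLN (right) spread along the CNS axis. In that class 201 of 693 genes that passed the filter on CNS level were called higher.

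Transcripts of monocytes, macrophages, microglia and neutrophils were high in all 3 CNS Treg libraries. Of 40 tested genes on a list of monocyte and macrophage genes, 34 were called higher and none lower, with a median log2 fold change of 5.9 (5.59 with genes absent from Tconv at their lower bound). Without Treg replicate 2, 19 were called, and without Tconv replicates 3 and 4, 33. The list summed to 14800, 14200 and 10500 CPM in Treg libraries, against 2570 to 2890 CPM in CNS Tconv and 1190 to 2730 CPM in dLN Treg libraries. Of the 40 genes, 13 reach 10 CPM in dLN Tconv libraries; which cells gave those counts was not tested.

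Lyz2 was at 1406, 1088 and 944 CPM in Treg libraries and at 0, 0.593, 7.84 and 8.73 CPM in Tconv libraries (8.08 ± 1.07, adjusted p = 0.0031). Csf1r, the receptor for the growth factor of macrophages and microglia, was at 1255, 1203 and 849 CPM in Treg and at 0, 0, 21.1 and 48.1 CPM in Tconv libraries (6.0 ± 1.5, adjusted p = 0.04). Adgre1, a surface receptor of macrophages, was at 57.7, 58 and 59.3 CPM in Treg libraries, a nearly even level, and was counted in 1 of the 4 Tconv libraries. In Tconv libraries Lyz2 and Csf1r sat mainly in replicates 3 and 4. The sum of the whole list was nearly even there, at 2680, 2570, 2890 and 2680 CPM in Tconv replicates 1 to 4. The call of Csf1r was lost without any 1 Treg library or without Tconv replicate 3, and that of Cd68 without Treg replicate 1 or 2.

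Genes of activated macrophages varied between the Treg libraries. Nos2, the inducible nitric oxide synthase, was at 47.4, 272 and 33.7 CPM in Treg libraries and at 0 in all 4 Tconv libraries, at least 579.5-fold higher against a floor of 3 counts per library. Arg1, arginase, was at 90.9, 322 and 144 CPM in Treg and 4.03, 1.99, 0 and 1.55 CPM in Tconv libraries (6.61 ± 0.84, adjusted p = 0.0025). Treg replicate 2 held the highest level of both. Chil3 was at 882, 1189 and 322 CPM in Treg libraries and 0 in all Tconv libraries, at least 3933-fold higher. Il1b, an inflammatory cytokine that is on the neutrophil list, was at 106, 189.6 and 106 CPM against 0, at least 659-fold higher.

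Of 16 microglial genes tested, 10 were called higher and none lower, with a median log2 fold change of 3.6. Without Treg replicate 1 or without replicate 2, 6 were called, and without Tconv replicates 3 and 4, 12. Tmem119 and P2ry12, which among immune cells mark microglia, were at 393, 285 and 217 CPM (Tmem119) and at 151, 131 and 136 CPM (P2ry12) in Treg libraries. In Tconv libraries Tmem119 was at 0, 0.323, 7.77 and 7.92 CPM and P2ry12 at 0, 0, 9.75 and 7.18 CPM, so replicates 3 and 4 held both and replicates 1 and 2 nearly none. Cst3, a protease inhibitor, is also counted in dLN libraries, and its call did not depend on 1 library. It was at 1735, 1585 and 1429.7 against 251, 241, 226 and 243 CPM (2.72 ± 0.13, adjusted p = 6.1e-05). The call of P2ry12 was lost without any 1 Treg library or without Tconv replicate 3, and that of Tmem119 was kept in each of these fits (5.06 ± 1.2, adjusted p = 0.033 and 6.24 ± 1.06, adjusted p = 0.0088 with all 7 libraries).

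Neutrophil genes had the largest median of the 34 lists. Of 15 tested, 12 were called higher and none lower, with a median log2 fold change of 10.1 (8.53 with absent genes at their bound), and 5 were at 0 in all Tconv libraries. The list summed to 1900, 923 and 1020 CPM in Treg libraries, 2.59 to 11.4 CPM in CNS Tconv libraries and 7.65 to 40.2 CPM in dLN Treg libraries. S100a8, an alarmin of neutrophils, was at 401, 132 and 157 CPM in Treg and 0, 0, 0.636 and 0.074 CPM in Tconv libraries (10.35 ± 0.82, adjusted p = 0.00029). Ltf (lactoferrin), a protein of neutrophil granules, was at 169.5, 69.1 and 87.7 CPM in Treg libraries. The granule protein Ngp was at 375, 186 and 203 CPM and the collagenase Mmp8 at 96.6, 49.5 and 30.1 CPM in the same libraries. Treg replicate 1 held the most of each. Il1b, which is on the same list, was highest in replicate 2, as were Nos2 and Arg1. Ly6g, the gene that most narrowly defines neutrophils, was at 2.75, 0.803 and 1.55 CPM in Treg libraries and did not pass the test (3.78 ± 1.49, adjusted p = 0.18).

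The promoters of Ltf, Mmp8 and Retnlg, a secreted protein of neutrophils, are shown because these genes share the neutrophil list, were nearly absent from dLN T cells and were highest in the same Treg library. Each of these promoters holds the letters marked below, so they are no unselected sample. Other genes of the list that were nearly absent from dLN T cells, such as Csf3r and Camp, are not shown. In these RefSeq promoters (GRCm38.p6, the bases just before and after the annotated start), capitals mark the letters TTGCNNAA on either strand, the core of C/EBP binding sites; Ltf lies at chr9:111019042-111019341, Mmp8 at chr9:7558179-7558478 and Retnlg at chr16:48872358-48872657, all on the plus strand.
Ltf: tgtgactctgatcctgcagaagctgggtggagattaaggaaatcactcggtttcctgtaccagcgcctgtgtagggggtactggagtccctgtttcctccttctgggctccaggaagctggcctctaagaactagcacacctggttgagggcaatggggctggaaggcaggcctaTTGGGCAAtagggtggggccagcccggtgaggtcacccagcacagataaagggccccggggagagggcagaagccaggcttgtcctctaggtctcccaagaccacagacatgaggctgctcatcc
Mmp8: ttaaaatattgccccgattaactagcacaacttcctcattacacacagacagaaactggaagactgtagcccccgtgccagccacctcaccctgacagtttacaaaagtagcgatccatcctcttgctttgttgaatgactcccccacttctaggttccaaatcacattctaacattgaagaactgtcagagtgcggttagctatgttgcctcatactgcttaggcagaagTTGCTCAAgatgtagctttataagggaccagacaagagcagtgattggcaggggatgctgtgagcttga
Retnlg: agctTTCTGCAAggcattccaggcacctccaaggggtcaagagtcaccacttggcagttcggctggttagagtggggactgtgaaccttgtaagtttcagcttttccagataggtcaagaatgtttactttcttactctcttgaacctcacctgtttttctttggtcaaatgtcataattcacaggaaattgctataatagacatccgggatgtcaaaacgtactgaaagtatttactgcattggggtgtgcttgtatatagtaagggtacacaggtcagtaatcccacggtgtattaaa

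These letters occur in 4 of 9 promoters of the 10 largest rises among genes under 1 CPM in dLN T cells (8 of the 10 genes matched), in 18.4% of the 179 promoters of all genes called higher in that class, in 8.69% of promoters of tested genes and in 10.8% of all 32851 RefSeq promoters. The PU.1 letters GAGGAAGT occur in 5.59% of promoters of those called genes, in 3.5% of promoters of tested genes and in 3.2% of all promoters. The AP-1 letters TGANTCA occur in 12.3%, 4.97% and 7.81% in the same order. A match of letters describes the sequence and shows no binding.

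Genes of antigen presentation by MHC class II were higher in CNS Treg libraries, with 7 of 10 tested called, none lower and a median log2 fold change of 4.02. Without Treg replicate 1 or without replicate 2, 4 were called, and without Tconv replicates 3 and 4, 8. Cd74, the invariant chain, was at 4094, 4236 and 3768 CPM in Treg and 49.3, 133, 261 and 569 CPM in Tconv libraries (3.99 ± 0.68, adjusted p = 0.0086). H2-Ab1 was at 2075, 1990.4 and 1756 against 8.56, 25.3, 74.5 and 183 CPM (4.74 ± 0.86, adjusted p = 0.011). The Treg libraries were close together, while the Tconv libraries ranged more widely in relative terms, lowest in replicate 1 and highest in replicate 4. For Cd74, the difference between tissues did not pass (CNS minus dLN 3.14 ± 0.85, adjusted p = 0.081), and for H2-DMa, which loads peptides, it was larger in the CNS (CNS minus dLN 2.4 ± 0.34, adjusted p = 0.0039). T cells of mice carry little MHC class II, and which cells gave these counts was not tested.

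Lists of other cell types held fewer calls, to be read against the 8.47% called over all tested genes. Of dendritic cell genes, 3 of 16 were called higher (5 without Tconv replicates 3 and 4), among them the chemokine Ccl17 (18.4, 85.6 and 38.1 CPM in Treg and 0, 0.647, 0 and 0.814 CPM in Tconv libraries; 6.96 ± 1.01, adjusted p = 0.0048). Of B and plasma cell genes, 1 of 11 was called higher (Cd79b, a call lost without any 1 Treg library or Tconv replicate 3, and at 1.56 with an adjusted p = 0.094 without Tconv replicates 3 and 4), and the list summed to 332, 55.5 and 226 CPM in Treg libraries against 14.4 to 44.5 CPM in Tconv libraries, lowest among Treg libraries in replicate 2. Of CD8 T and NK cell genes, 1 of 10 was called, Klrb1c (NK1.1), which was lower, a call lost without the same libraries (-2.39, adjusted p = 0.098 without Tconv replicates 3 and 4). Cd8a, at 29.2, 38.8 and 29.5 CPM in Treg and 3.45, 2.7, 15 and 13.7 CPM in Tconv libraries, did not pass (1.9 ± 0.59, adjusted p = 0.092), but it was called higher without Tconv replicates 3 and 4 (3.4, adjusted p = 0.0022). None of 4 tested astrocyte genes was called in edgeR's test (2 higher at an unadjusted p under 0.05, 2 higher by DESeq2 and limma voom, without Tconv replicate 4 and without replicates 3 and 4). None of 4 tested neuron genes was called either (1 lower at an unadjusted p under 0.05, 1 lower by DESeq2, none by limma voom). Of 4 oligodendrocyte genes Cspg4 was called higher and Mbp lower. The list held no higher call without any 1 library other than Tconv replicate 4, and no lower call without any 1 Treg library or Tconv replicate 3. Without Tconv replicates 3 and 4 together it held neither. Of 5 endothelial and fibroblast genes Flt1 was called higher, with 2 calls without Tconv replicate 2 and without replicates 3 and 4. The 1 tested gene of mast cells, basophils and erythroid cells was not called (1 higher at an unadjusted p under 0.05, by DESeq2 and limma voom, and without Tconv replicate 1). The part of other cells in any T cell result below was not tested.

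**Figure D2:**
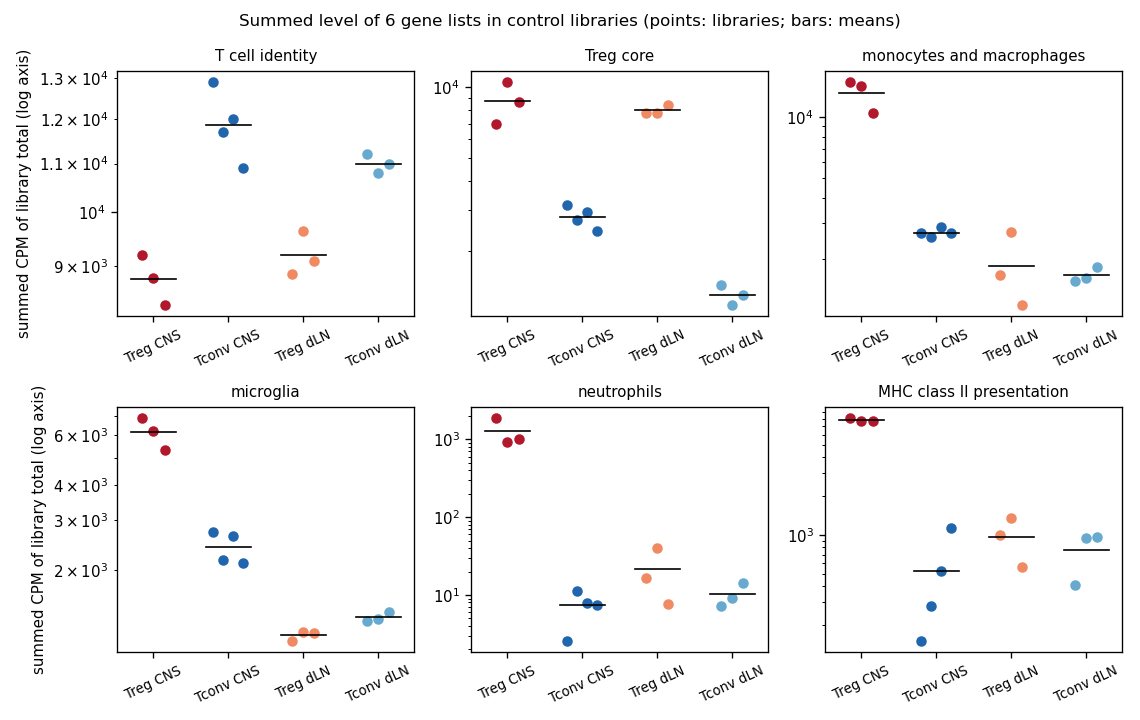
Summed CPM of library total for 6 gene lists in each of the 13 control libraries (points; bars are group means; log axes). The 3 CNS Treg libraries stand apart in the monocyte and macrophage, microglia, neutrophil and MHC class II lists (neutrophil sum 923 to 1900 CPM against at most 40.2 CPM in other control libraries), while the Treg core list separates Treg from Tconv in both tissues.

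The genes that define Treg were higher in the CNS Treg libraries as a group. Of 25 tested members of a Treg core list, 20 were called higher and none lower, with a median log2 fold change of 2.43, and the same list gave 24 of 27 higher and a median of 2.88 in the dLN. All 25 are in the class of dLN T cell genes, which a gene can enter through its Treg level; 18 reach 10 CPM in dLN Tconv libraries. Fits that left out any 1 of the 7 libraries called 17 to 20, all higher, and that without Tconv replicates 3 and 4 called 19. Parts of this list are also on the lists of suppressor molecules and TNF receptors below.

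Of the other transcription factors on the list, Ikzf4 (Eos) was at 151, 186 and 125 CPM in Treg and 6.33, 6.31, 3.18 and 13.2 CPM in Tconv libraries (4.41 ± 0.42, adjusted p = 0.0007). Ikzf2 (Helios), which supports the stability of Treg, was at 106, 108 and 122 against 26.8, 10.2, 11.2 and 8.66 CPM (2.98 ± 0.38, adjusted p = 0.0026). Swap70, a regulator of the cell's actin skeleton, was the member with the smallest p: it was at 170.5, 158 and 153 CPM in Treg and 26, 26.3, 33.5 and 25.5 CPM in Tconv libraries (2.53 ± 0.16, adjusted p = 0.0001). None of these 3 overlapped between the groups, and none is on a list of other cells. Gpr34, which did not pass (1.18 ± 0.38, adjusted p = 0.1), is on both the Treg core and the microglia list.

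Receptors showed the same order of groups. Ctla4, which removes the costimulatory ligands from antigen-presenting cells, was at 242, 390.2 and 560.2 CPM in Treg and 17.4, 39.8, 30.4 and 73 CPM in Tconv libraries (3.31 ± 0.46, adjusted p = 0.0041). Il2ra (CD25) was at 265, 407 and 464 against 85.6, 84.4, 53.8 and 57 CPM (2.43 ± 0.25, adjusted p = 0.00098). Both were lowest in Treg replicate 1 among the Treg libraries. Itgae (CD103), which binds E-cadherin, was at 59.2, 60.1 and 179.6 against 1.44, 3.02, 3.53 and 5.99 CPM (4.83 ± 0.56, adjusted p = 0.0017), with Treg replicate 3 high.

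Among suppressor molecules, 8 of 14 tested genes were called higher and none lower, with a median log2 fold change of 1.89. Without Tconv replicate 4 there were 9 higher and 1 lower, and without Tconv replicates 3 and 4 7 higher and 1 lower. Lrrc32 (GARP), which holds latent TGF-beta at the surface, was at 218, 478 and 272 CPM in Treg and 7.62, 0, 2.61 and 0.962 CPM in Tconv libraries (6.88 ± 0.97, adjusted p = 0.0042). Entpd1 and Nt5e, which turn extracellular ATP into adenosine in sequence, had log2 differences of 1.9 ± 0.27, adjusted p = 0.0041 and 1.54 ± 0.17, adjusted p = 0.0013. Ebi3, a chain of IL-35 and IL-27, was at 40.9, 42.7 and 85 against 2.73, 8.84, 6.64 and 13.6 CPM (2.82 ± 0.5, adjusted p = 0.01). Il10 was low, at 2.16, 4.51 and 1.8 CPM in Treg and 0, 2.43, 0 and 0.962 CPM in Tconv libraries, and did not pass (1.71 ± 1.46, adjusted p = 0.57).

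One of the RefSeq promoters of Foxp3 (chrX:7580233-7580532, plus strand) is shown because the gene defines the comparison, chosen because it holds the letters below; that at chrX:7579426-7579725 holds none of them and is not shown. Also shown is the promoter of Dapl1 (chr2:59484403-59484702, plus strand), because this gene gave the largest fall among genes of dLN T cells. Capitals mark TTCNNNGAA, the STAT letters, in Foxp3 and TGTTTAC, the forkhead letters, on either strand in Dapl1.
Foxp3: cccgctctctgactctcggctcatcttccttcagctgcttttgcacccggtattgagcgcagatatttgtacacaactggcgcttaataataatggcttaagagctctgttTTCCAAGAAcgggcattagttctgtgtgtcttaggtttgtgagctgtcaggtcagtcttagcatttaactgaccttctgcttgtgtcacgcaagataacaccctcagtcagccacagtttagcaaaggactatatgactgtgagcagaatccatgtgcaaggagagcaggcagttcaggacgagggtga
Dapl1: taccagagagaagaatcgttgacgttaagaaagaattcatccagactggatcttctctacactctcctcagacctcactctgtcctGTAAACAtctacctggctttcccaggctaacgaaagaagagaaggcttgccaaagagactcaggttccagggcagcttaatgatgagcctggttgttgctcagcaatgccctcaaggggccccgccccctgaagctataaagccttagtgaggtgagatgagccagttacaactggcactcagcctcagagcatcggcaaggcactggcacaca

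The STAT letters occur in 10.6% of 142 promoters of genes called higher in both tissues without a larger difference in the CNS, in 6.97% of promoters of tested genes and in 8.3% of all promoters. The forkhead letters occur in 2.27% of 264 promoters of genes called lower, in 2.55% of promoters of tested genes and in 3.65% of all promoters. They occur in 5.63% of the 142 promoters of genes called higher in both tissues.

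Of 13 tested members of the TNF receptor superfamily, 6 were called higher and none lower, with a median log2 fold change of 1.57; with T cell gene scaling 10 were higher. Tnfrsf18 (GITR), a receptor that costimulates T cells, was at 1011, 1308 and 992 CPM in Treg and 386, 260.5, 314 and 264 CPM in Tconv libraries. Tnfrsf4 (OX40), another such receptor, was at 541, 1049.9 and 808 against 170.4, 108, 127 and 175 CPM. Tnfrsf9 (4-1BB), a mark of recently activated Treg, was at 412, 1328 and 734 CPM in Treg and 57.1, 22.9, 28.3 and 137 CPM in Tconv libraries (3.75 ± 0.65, adjusted p = 0.0092), with replicate 2 highest among Treg and replicate 4 among Tconv.

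Tnfrsf1b (chromosome 4, 145213463 to 145246870, minus strand), which encodes the receptor TNFR2 and is targeted in Treg of the icKO mice, was at 451, 697 and 660.1 CPM in control CNS Treg and 223, 170.0, 193 and 224 CPM in control CNS Tconv libraries (1.57 ± 0.18, adjusted p = 0.0018; 1.56, adjusted p = 0.11 in the fit of 26 libraries). In the dLN it averaged 806 ± 61 and 124 ± 9.83 CPM, a log2 difference of 2.69 ± 0.17, adjusted p = 2.6e-06, and the difference between Treg and Tconv was smaller in the CNS than in the dLN (CNS minus dLN -1.14 ± 0.22, adjusted p = 0.021). This call was lost when libraries were scaled to T cell genes (-0.87, adjusted p = 0.079). Tnfrsf1a, the receptor TNFR1 that most cells carry, was at 55.4, 89.6 and 61.6 against 42.3, 51.4, 50.5 and 52.8 CPM and did not pass within the CNS (0.48 ± 0.2, adjusted p = 0.21), but it was lower in dLN Treg (-1.02 ± 0.19, adjusted p = 0.0043) and the difference between the tissues passed (CNS minus dLN 1.48 ± 0.25, adjusted p = 0.011). Ltbr, a lymphotoxin receptor of stromal and myeloid cells that is under 1 CPM in dLN T cells, was at 20.5, 16.5 and 19.1 CPM in Treg and 0, 0.485, 0.565 and 1.18 CPM in Tconv libraries (5.05 ± 0.86, adjusted p = 0.0089).

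**Figure D3:**
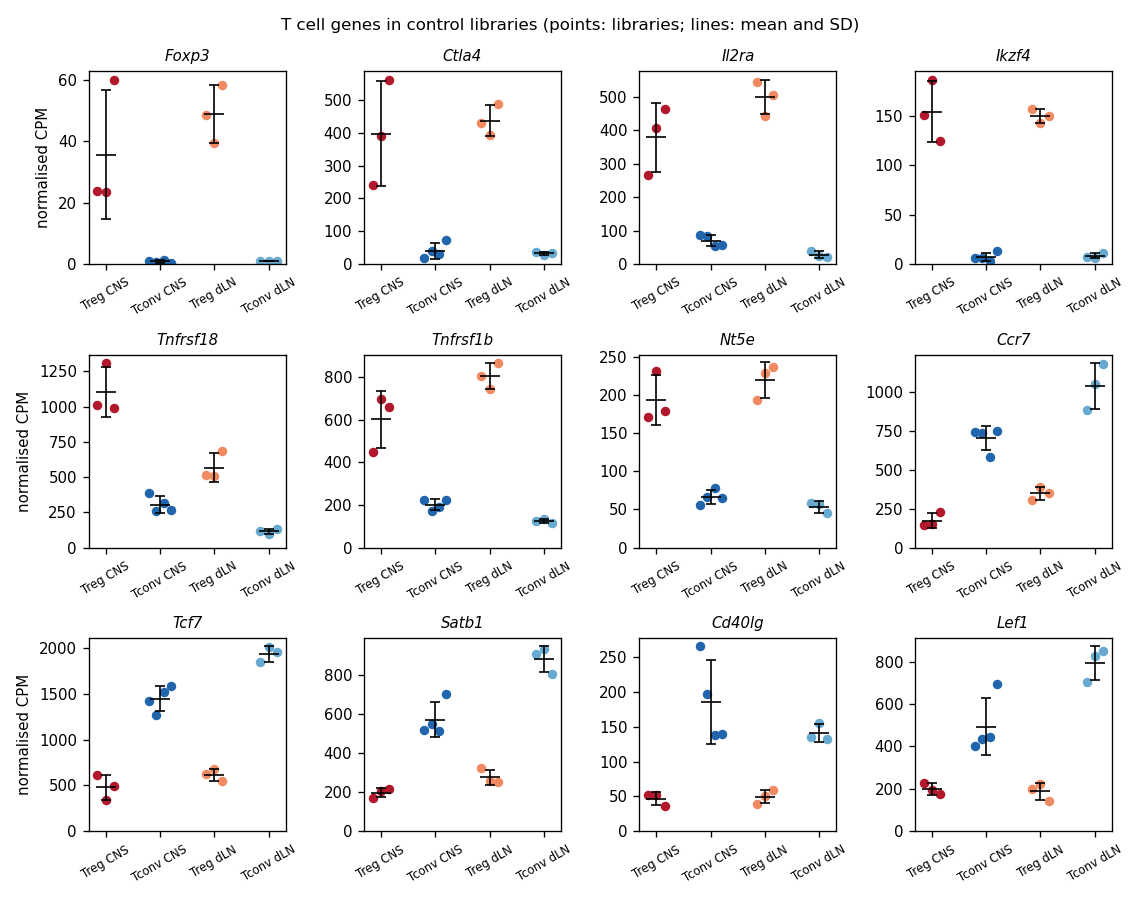
Normalised CPM of 12 T cell genes in each control library of the CNS and dLN (points; lines are the mean and SD; each axis starts at 0). Foxp3 to Nt5e are higher and Ccr7 to Lef1 lower in CNS Treg than in CNS Tconv libraries without overlap; Foxp3 ranges from 23.5 to 59.9 CPM in CNS Treg libraries.

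Of 21 tested genes of effector and tissue Treg, 5 were called higher and none lower (median 1.31), against 16 of 22 in the dLN (median 2.16). In the CNS 13 were higher with T cell gene scaling (median 1.78). Without Treg replicate 2, 3 were called, and without replicate 3, 2. Whether these counts differ was not tested; 2 of the genes had a smaller difference in the CNS by the interaction. Il1rl1 (ST2), the IL-33 receptor of tissue Treg, was at 70.6, 61 and 127 CPM in Treg and 9.63, 5.77, 25.9 and 18.3 CPM in Tconv libraries (2.53 ± 0.49, adjusted p = 0.014), a call lost without Treg replicate 3. Klrg1 had a log2 difference of 1.99 ± 0.48, adjusted p = 0.034, a call that was lost without any 1 Treg library. Nfil3 had 2.2 ± 0.33, adjusted p = 0.0058, while Prdm1 (Blimp-1), at 26.3, 55 and 61.3 against 26.5, 26.5, 24.7 and 29.5 CPM, did not pass (0.83 ± 0.29, adjusted p = 0.13).

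Genes of naive and central memory T cells were lower in CNS Treg libraries: 11 of 18 tested were called lower and none higher, with a median log2 fold change of -1.42. With T cell gene scaling 9 were lower and 1 higher, without Tconv replicates 3 and 4, 10 were lower, and without Treg replicate 2, 7. Ccr7, the chemokine receptor for entry into lymph nodes, was at 144, 151 and 226 CPM in Treg and 743, 733, 584 and 747 CPM in Tconv libraries (-2.01 ± 0.2, adjusted p = 0.00085). Tcf7, the transcription factor TCF1 of naive and memory T cells, was at 608, 336 and 489 against 1417, 1267, 1518 and 1584 CPM (-1.6 ± 0.21, adjusted p = 0.0029). Satb1, which organises chromatin and is repressed by Foxp3, was at 172, 207 and 214 against 516, 549, 515 and 704 CPM (-1.53 ± 0.17, adjusted p = 0.0013). None of these overlapped between the groups. Il7r, the IL-7 receptor that is low on Treg, had a log2 difference of -1.06 ± 0.16, adjusted p = 0.0053.

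Several members differed among the Tconv libraries themselves. Lef1 was at 403, 433, 445 and 692 CPM, Dapl1 at 43.9, 42.2, 40.1 and 124 CPM and Igfbp4 at 150.5, 184, 327 and 705 CPM in Tconv replicates 1 to 4, with replicate 4 highest in all 3. By rank correlation over all genes, Tconv replicate 4 resembled a dLN Tconv library more than any CNS library (0.963). In Treg libraries Lef1 was at 229, 193 and 175 CPM, Dapl1 at 1.49, 0.0618 and 3.23 CPM and Igfbp4 at 24.6, 8.46 and 42 CPM, below every Tconv library. The call of Lef1 was lost with T cell gene scaling (-0.82, adjusted p = 0.052), and the call of Igfbp4 was lost without Treg replicate 1 or 2. Other large falls, named from genes without overlap, included Atp1b1, a subunit of the sodium pump (-2.91 ± 0.46, adjusted p = 0.0068), and Tmie (-4.45 ± 1.07, adjusted p = 0.034). The call of Tmie was lost without Treg replicate 2 or Tconv replicate 2 or 4 and without Tconv replicates 3 and 4 (-4.33, adjusted p = 0.074).

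T cell identity genes were also lower: 8 of 18 tested were called lower and none higher, with a median log2 fold change of -0.46, but with T cell gene scaling 1 was lower and 2 higher and the median was 0.07. These genes set that scaling, so it fixes their median near 0. Leaving out 1 library gave 4 lower (Treg replicate 1 or Tconv replicate 2), 3 (Treg replicate 2) or 5 (Treg replicate 3 or Tconv replicate 3), and 7 were lower without Tconv replicates 3 and 4. Thy1, a surface protein of mouse T cells, was at 45.6, 41.3 and 61.7 CPM in Treg and 165, 131, 152 and 101 CPM in Tconv libraries (-1.47 ± 0.22, adjusted p = 0.006). Lck and Cd247, the kinase and the zeta chain of the T cell receptor complex, had log2 differences of -0.71 ± 0.13, adjusted p = 0.012 and -0.9 ± 0.19, adjusted p = 0.022; both calls, like that of Cd4, were lost with T cell gene scaling, and that of Cd247 also without any 1 Treg library or Tconv replicate 2 or 3. The same list gave 5 lower and 1 higher of 18 in the dLN, with a median of -0.23. For 2 of the 18 the difference was more negative in the CNS than in the dLN by the test between tissues. The cause of the lower values was not tested.

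Of 14 tested cytokines and ligands of encephalitogenic T cells, 1 was called, Cd40lg, which was lower in Treg at 51.4, 52.7 and 36.2 against 265, 197, 138 and 140.0 CPM (-1.99 ± 0.27, adjusted p = 0.0038); CD40 ligand is the helper signal to B cells and myeloid cells. Ifng was at 95.1, 293 and 86.9 CPM in Treg and 26.7, 55.5, 30.1 and 103 CPM in Tconv libraries and did not pass (1.56 ± 0.55, adjusted p = 0.14). Csf2 (GM-CSF) was at 54.2, 53.2 and 9.69 against 3.38, 7.28, 3.39 and 49.9 CPM (1.29 ± 0.98, adjusted p = 0.52), with 1 Tconv library, replicate 4, near the 2 higher Treg libraries. Il17a was at 5.51, 9.33 and 2.61 against 3.95, 3.67, 1.13 and 5.92 CPM (0.66 ± 0.69, adjusted p = 0.65). Il17f was at 0, 1.3 and 6.52 against 0, 2.48, 0.353 and 7.4 CPM (0.03 ± 1.71, adjusted p = 1). Without Tconv replicate 4, Ifng and Csf2 were called higher in Treg libraries, with log2 fold changes of 2.08 and 3.05. Scaling to T cell genes gave 2 higher and 1 lower of the 14.

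Of Th1 genes, 1 of 17 was called, Cxcr6, a chemokine receptor of effector and resident T cells, which was lower in Treg at 347, 498 and 219.7 against 1543, 1600.0, 1069 and 841 CPM (-1.83 ± 0.32, adjusted p = 0.01), a call lost without Treg replicate 1. No member was lower without that library, 2 were without Treg replicate 2, without Tconv replicate 1 or without Tconv replicates 3 and 4, and 3 were lower and 1 higher without Tconv replicate 4. Tbx21 (T-bet) was at 76.7, 66.6 and 33.8 against 172, 158, 163 and 69.5 CPM and overlapped (-1.25 ± 0.37, adjusted p = 0.075); without Tconv replicate 4, which was at 69.5 CPM, it was called lower (-1.47), as it was without replicates 3 and 4 (-1.48). Cxcr3, at 475, 531 and 260.3 against 814, 533, 595 and 298 CPM, did not pass, and its log2 fold change was -0.41, or 0.14 with T cell gene scaling. The list median was -0.41, and 0.09 with that scaling, where 5 members were higher and 1 lower. Over all 11907 tested genes 8.47% were called, so 1 call on this or another list is no result about the list.

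Th17 genes gave 2 lower and 1 higher of 17 (median -0.08). None was lower without Treg replicate 1 or 2 or Tconv replicate 2, 1 was without Treg replicate 3 or Tconv replicate 3, and 3 were without Tconv replicates 3 and 4. Scaling to T cell genes gave 3 higher and 1 lower. Il6ra was lower (-1.13 ± 0.29, adjusted p = 0.042) and was no longer called with T cell gene scaling, without any 1 library other than Treg replicate 3 or Tconv replicate 1, or without Tconv replicates 3 and 4 (-0.81, adjusted p = 0.16). Il23r was at 0, 2.16 and 1.37 against 0.863, 14.8, 7.21 and 3.7 CPM and did not pass (-2.49 ± 1.29, adjusted p = 0.32). Ahr, the aryl hydrocarbon receptor, was higher in Treg (0.9 ± 0.22, adjusted p = 0.034), a call lost without any 1 Treg library, without Tconv replicate 2 or 3, or without Tconv replicates 3 and 4 together (0.8, adjusted p = 0.071). Tfh genes gave 1 of 9, Pdcd1 (PD-1), at 322, 354 and 448 against 186, 143, 139 and 226 CPM (1.11 ± 0.21, adjusted p = 0.012), lost without Treg replicate 2; without Treg replicate 1 there were 2 calls, and with T cell gene scaling 4.

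Trafficking receptors split by gene. Of 17 chemokine receptors, 3 were called higher, among them Ccr1 and Cx3cr1, and 2 lower (Ccr7 and Cxcr6). Without Tconv replicates 3 and 4, or without any 1 Treg library or Tconv replicate 3, 2 were called higher. The lower calls were 1 without Treg replicate 1 and 3 without Tconv replicate 4 or replicates 3 and 4. Ccr1, a receptor of myeloid cells and some effector T cells, was at 63.3, 91.3 and 77.9 CPM in Treg and 1.8, 5.39, 2.4 and 6.51 CPM in Tconv libraries (4.26 ± 0.44, adjusted p = 0.0011). Cx3cr1, the fractalkine receptor of microglia and monocytes, was at 182, 205 and 144 against 12.2, 15.5, 43.5 and 23.3 CPM (2.91 ± 0.4, adjusted p = 0.0038). Both are under 10 CPM in dLN T cells, and their part from myeloid cells was not tested. Of 11 integrin chains, Itgae was called higher in edgeR's test of the 7 libraries; 2 were higher without Tconv replicate 4 or replicates 3 and 4, and 5 with T cell gene scaling.

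Residency genes gave 3 higher and 3 lower of 14. None was lower without Treg replicate 1, and 1 without Treg replicate 2 or 3. Without Tconv replicates 3 and 4 there were 4 higher and 3 lower, and with T cell gene scaling 5 higher and 1 lower. Rgs1, a brake on chemokine signalling, was at 148, 384 and 321 CPM in Treg and 85.9, 75.5, 50 and 127 CPM in Tconv libraries (1.75 ± 0.37, adjusted p = 0.019), and S100a4 was lower (-1.1 ± 0.27, adjusted p = 0.036), with its call lost with T cell gene scaling and without any 1 of the Treg libraries or Tconv replicate 2 or 3. Rgs1 lost its call without Treg replicate 2 or 3 or Tconv replicate 2. Inhibitory and costimulatory receptors gave 6 higher and 2 lower of 16, and with T cell gene scaling 9 higher and none lower. Among them Havcr2 (TIM-3), which macrophages and microglia also carry, was at 61.1, 78.4 and 61.1 against 3.45, 19.5, 13.6 and 26 CPM (2.1 ± 0.52, adjusted p = 0.039), a call lost without any 1 library other than Tconv replicate 1 or 4, and without Tconv replicates 3 and 4 (2.53, adjusted p = 0.06). The 2 lower genes were Cd28 and Cd96. None was called lower without Treg replicate 2 or Tconv replicate 2 or 3, and 1 without Treg replicate 1 or 3 or without Tconv replicates 3 and 4. Of 15 genes of the IL-2 receptor and STAT5, Il2ra was called higher; 2 were higher without Tconv replicates 3 and 4, 2 higher and 1 lower without Tconv replicate 4, and 10 higher with T cell gene scaling.

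**Figure D4:**
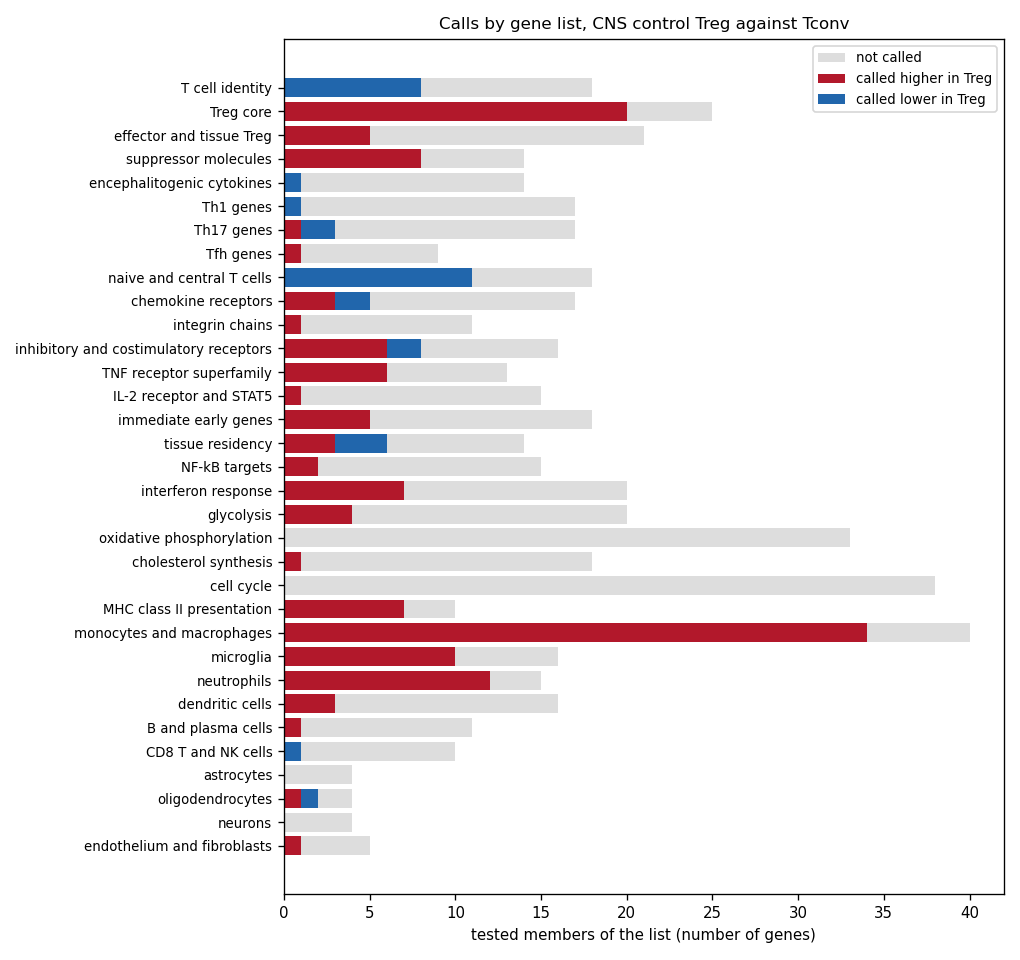
Bars give the number of tested members of each gene list with at least 4 tested members; red and blue parts were called higher and lower in CNS control Treg than in Tconv libraries, and grey parts were not called. The Treg core list (20 of 25), the monocyte and macrophage list (34 of 40) and the neutrophil list (12 of 15) hold the largest called shares, and the naive and central list (11 of 18) holds the most lower genes.

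Response genes that T cells and myeloid cells share were higher in part. Of 18 immediate early genes, 5 were called higher and none lower (median 0.99), and 3 were called without Treg replicate 2 and 9 with T cell gene scaling. Fos was at 401, 763 and 403 CPM in Treg and 116, 124, 130.0 and 93 CPM in Tconv libraries (2.17 ± 0.25, adjusted p = 0.0016). Dusp1, a phosphatase that ends MAP kinase signals, was at 845, 1317 and 587 against 147, 179, 132 and 129 CPM (2.64 ± 0.26, adjusted p = 0.00085). Treg replicate 2 was the highest for both, as it was for Nos2, Arg1 and the sum of the Treg core list (10500 CPM). The sum of the monocyte and macrophage list was highest in Treg replicate 1 (14800 CPM), and which cells gave the counts of Fos and Dusp1 was not tested. Atf3, under 1 CPM in dLN T cells, had a log2 difference of 5.59 ± 0.89, adjusted p = 0.0069, a call lost without Treg replicate 2, and Junb did not pass (0.96 ± 0.28, adjusted p = 0.071). The list of NF-kB targets (2 of 15 higher, Tnfaip3 and Cd83) lost both calls without Treg replicate 2 or without Tconv replicate 2 or 3 and 1 of them without Treg replicate 1 or 3, while with T cell gene scaling 13 were higher.

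Interferon response genes gave 7 higher and none lower of 20, with a median log2 fold change of 1.15; with T cell gene scaling 17 were higher. Irf7, which amplifies interferon production, was at 568, 865 and 454 CPM in Treg and 300.0, 275, 258 and 252 CPM in Tconv libraries (1.21 ± 0.21, adjusted p = 0.0092). Usp18 was at 194, 480.1 and 137 against 59, 76, 74.4 and 72.4 CPM (1.94 ± 0.37, adjusted p = 0.014). Oas1a was at 115, 178 and 132 against 45.4, 31.9, 46 and 41.7 CPM (1.78 ± 0.2, adjusted p = 0.0016). Without Tconv replicates 3 and 4 there were 2 calls, and Irf7 (1.13, adjusted p = 0.054) and Usp18 (2.0, adjusted p = 0.064) were not among them. Without Treg replicate 1 there were 4 calls, and without Treg replicate 2 or Tconv replicate 3, 3 calls. The list sum was highest in Treg replicate 2, at 9690 CPM. The other 2 Treg libraries were at 5950 and 5270 CPM and the Tconv libraries at 3400 to 5810 CPM.

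Counts of metabolic genes depended on the scaling. Of 20 glycolysis genes, 4 were called higher and none lower (median 0.38), against 16 higher and a median of 0.9 with T cell gene scaling. Slc16a3, a lactate exporter, was at 65.5, 181 and 113 against 20.6, 19.8, 17.5 and 36.2 CPM (2.35 ± 0.37, adjusted p = 0.0067), and Hk2, the first enzyme of glycolysis, had 2.37 ± 0.39, adjusted p = 0.0078. Without Treg replicate 2, which held the highest sum of the list (15600 CPM), 1 was called, and without Tconv replicates 3 and 4, 3. No gene of oxidative phosphorylation was called of 33 in edgeR's test (median -0.19; 7 lower at an unadjusted p under 0.05, and 2 and 3 lower by limma voom and DESeq2), with 4 lower without Tconv replicate 4 and 3 without Tconv replicates 3 and 4, and with T cell gene scaling 8 were higher and the median was 0.34. At an unadjusted p under 0.05, 2551 of all 11907 genes passed. Of 18 cholesterol synthesis genes 1 was higher; none was without Treg replicate 2 or 3, Tconv replicate 2 or 3, or Tconv replicates 3 and 4 together, 2 were without Tconv replicate 1, and 5 with T cell gene scaling. Of 38 cell cycle genes none was called (median 0.56; 2 higher at an unadjusted p under 0.05, none by DESeq2 or limma voom and 3 higher with T cell gene scaling), while 19 of 38 were called in the dLN; the difference between the tissues passed for none of the 38. Top2a, a topoisomerase of dividing cells, was at 88.4, 57.7 and 160.4 CPM in CNS Treg and 25.3, 76.4, 53.1 and 110.1 CPM in CNS Tconv libraries (0.63 ± 0.48, adjusted p = 0.52), and at 397, 258 and 377 and 90.9, 88.4 and 98.9 CPM in dLN Treg and Tconv libraries.

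The contrast in the dLN was set beside that in the CNS to show which differences both tissues share; this contrast was added after the data had been seen. In the dLN 1128 genes (9.04%) were called, 602 (4.83%) higher and 526 (4.22%) lower in Treg. With T cell gene scaling these were 1502 and 274. With CNS Tconv replicates 3 and 4 left out of the fit, 1374 genes were called, 718 higher and 656 lower. Of the 750 genes higher in CNS Treg, 160 (21.3%) were also higher and 8 lower in dLN Treg, and of the 259 lower genes 130 (50.2%) were also lower and 1 higher. The 160 and 130 shared genes were 26.6% of the 602 and 24.7% of the 526. Of the 160, 3 (1.88%) were on a list of other cells, against 68 (9.07%) of all 750. The lists do not hold every gene of other cells, and C3 and Pla2g7 are on none of them. The largest rises called in both tissues included C3, a complement component, at 46.7, 129.9 and 162 CPM in CNS Treg and 37.5, 106 and 9.67 CPM in dLN Treg libraries, and Pla2g7, which macrophages express, at 165, 228 and 128 and 9.84, 23.8 and 2.32 CPM.

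The difference between the tissues was tested in 1 fit of the 13 control libraries. The Treg over Tconv difference differed between CNS and dLN for 274 of 12473 genes (2.2%), larger (more positive) in the CNS for 216 (1.73%) and smaller for 58 (0.465%). With T cell gene scaling these were 358 and 19. Of the 750 higher genes, 148 had a larger and 6 a smaller difference in the CNS. By list, 11 of 40 monocyte and macrophage genes, 5 microglia, 9 neutrophil and 4 interferon response genes had a larger difference. The count was 956 without Tconv replicates 3 and 4 and 638 without replicate 4 alone, and it fell to between 101 and 129 without CNS Treg replicate 1 or 2, without dLN Treg replicate 1 or 3, or without dLN Tconv replicate 2 or 3.

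Among Treg core genes, 5 had a smaller difference in the CNS and none a larger one. Il2ra averaged 379 ± 102 and 70.2 ± 17.1 CPM in CNS Treg and Tconv libraries and 499 ± 51.4 and 28.5 ± 10.1 CPM in the dLN, with a smaller difference in the CNS (CNS minus dLN -1.72 ± 0.37, adjusted p = 0.03). Nrp1, a semaphorin receptor of Treg, averaged 376 ± 28.3 and 145 ± 15.1 CPM in the CNS and 429.5 ± 35.2 and 72.6 ± 2.95 CPM in the dLN (CNS minus dLN -1.22 ± 0.16, adjusted p = 0.0023). Ahr also had a smaller difference (CNS minus dLN -2.22 ± 0.28, adjusted p = 0.0019), at 52.4, 62.4 and 57.2 CPM in CNS Treg, 33.9, 31.9, 21.7 and 35.9 CPM in CNS Tconv, and 105 ± 12 and 12.4 ± 2.4 CPM in dLN Treg and Tconv libraries. With T cell gene scaling the calls of Nrp1 and Ahr held and that of Il2ra was lost (adjusted p = 0.061); the Il2ra call was made in 6 of 13 fits that each left out 1 library. For Foxp3 no difference between the tissues was detected (CNS minus dLN -0.22 ± 0.63, adjusted p = 0.93), nor for Ctla4 (CNS minus dLN -0.47 ± 0.55, adjusted p = 0.75).

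Some shared response genes had a larger difference in the CNS. Fos averaged 523 ± 209 and 116 ± 16.2 CPM in CNS Treg and Tconv libraries and 12.6 ± 6.49 and 15.6 ± 2.53 CPM in the dLN (CNS minus dLN 2.45 ± 0.44, adjusted p = 0.014). Irf7 averaged 629 ± 212 and 271 ± 21.6 CPM in the CNS and 89.4 ± 13.9 and 133 ± 28.6 CPM in the dLN (CNS minus dLN 1.76 ± 0.3, adjusted p = 0.011). Slc2a1, the glucose transporter GLUT1, averaged 191 ± 62.9 and 84.1 ± 15.7 CPM in the CNS and 55.1 ± 9.43 and 68.9 ± 13.9 CPM in the dLN (CNS minus dLN 1.49 ± 0.33, adjusted p = 0.035), a call made in 5 of 13 fits that each left out 1 library. Cst3, a gene of the microglia list that is also counted in dLN libraries, had a larger difference in the CNS too (CNS minus dLN 2.49 ± 0.17, adjusted p = 1.4e-05).

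The same cell types from the CNS of icKO mice gave the contrast in other libraries, with Tnfrsf1b targeted in the Treg. There 1290 of 11835 genes (10.9%) were called, 964 (8.15%) higher and 326 (2.75%) lower in Treg. With T cell gene scaling 2081 were higher and 121 lower, and without the 3 icKO Tconv libraries whose names disagree with their labels, 321, in a fit where the lone Tconv library is assumed to vary like the Treg libraries. Of the 750 genes higher in control CNS Treg, 478 (63.7%) were also higher and none lower in icKO; of the 259 lower genes 55 (21.2%) were also lower and none higher. These were 51.2% and 17.2% of the icKO calls that were tested in control libraries. Of the genes tested in icKO, 658 of 678 higher (97.1%) and 234 of 257 lower genes (91.1%) had the same sign there. These genes were chosen by their control calls and include transcripts on lists of other cells. The share of same signs over all tested genes is not given here. Foxp3 was at 66.6, 31.1 and 47.4 CPM in icKO Treg and 0.11, 0.381, 0.324 and 0.329 CPM in icKO Tconv libraries.

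Side by side, the Treg core list gave 20 of 25 higher in control and 18 of 26 in icKO CNS, the monocyte and macrophage list 34 of 40 and 33 of 38, and the MHC class II list 7 of 10 and 10 of 10. The naive and central list gave 11 lower in control and 1 lower and 2 higher in icKO. Ccr7 averaged 174 ± 45.4 and 702 ± 78.9 CPM in control Treg and Tconv libraries and 126 ± 23.5 and 175 ± 94.1 CPM in icKO. The list median was -0.54 in icKO and -1.42 in control libraries. Tnfrsf1b averaged 392 ± 85 and 329.6 ± 49.8 CPM in icKO and was not called there. Counts over the whole gene do not show whether its floxed part was deleted. The difference between the genotypes was not tested.

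**Figure D5:**
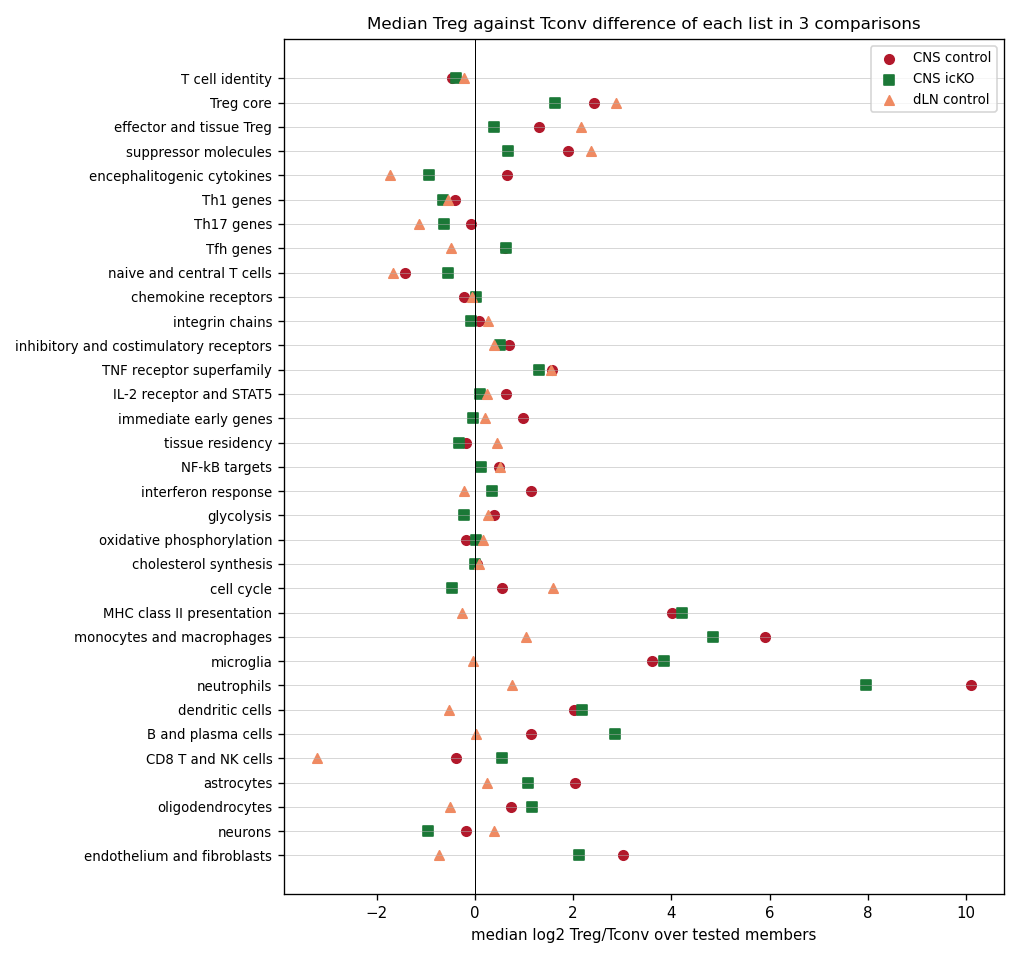
Median log2 Treg over Tconv difference over the tested members of each list in control CNS (circles), icKO CNS (squares) and control dLN libraries (triangles). The monocyte and macrophage medians are 5.9, 4.84 and 1.05 and the neutrophil medians 10.1, 7.96 and 0.75, while the Treg core medians are 2.43, 1.63 and 2.88.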

How the data were processed

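RNA from sorted cells was sequenced after SMART-Seq v4 and Nextera library preparation, which does not mark strand, per the labels' protocols. The authors deposited 1 table per sample with expected counts and TPM from RSEM; the submitters' processing notes name FastQC, Trimmomatic, STAR 2.5.3a, RSEM 1.2.28 and the build mm10. Deposited TPM values served only to describe levels per length in the result tables. Expected counts were rounded and tested with edgeR 4.0.16 (glmQLFit and glmQLFTest; filterByExpr; TMM) in R 4.3.3, with Benjamini-Hochberg adjustment over all tested genes at 0.05. The compared libraries alone entered each fit: 7 for the control CNS, 13 control libraries for the dLN and for the difference between tissues, and 7 for the icKO CNS. CPM of the CNS, dLN and icKO libraries come from those separate fits; list sums and classes use CPM of the library total. Alternatives were DESeq2 1.42.0, limma 3.58.1 voom, DESeq2 size factors, scaling to T cell identity genes, other filters, fits of 25 and 26 libraries, a block on the replicate number and fits without each library in turn. The fit of 25 libraries leaves out dLN Tconv replicate 3 of icKO mice, which the fit of 26 includes. Lower bounds of a fold use a floor of 3 counts per library and cover counting error only. Named genes are Foxp3 and Tnfrsf1b, the largest changes in each class without overlap, and for each list its first 4 members and its 4 called members with the smallest p in each direction; other members are given by value, and some named genes are not reported here. Members and lists were chosen with earlier results of these data known. The dLN contrast, list counts under other settings, the settings of the tissue difference and the wider promoter sets were added after the data had been seen. Reads of overlapping genes and near-identical copies, such as MHC class II genes, cannot be told apart without strand or unique mapping. Fits were tested on simulated data.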

Additional observations from a re-analysis of the deposited data

Results flagged for a closer look

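Of 127 groups of 4 Tconv libraries examined, 14 held 1 library far from the other 3. Chance sets apart about 1 in 20, but that rate does not hold where the other 3 are at 0, as for Adgre1, C3, Ltf and Ly6g. Replicate 4 was the library apart in 9 of the 14. Tbx21 was at 69.5 CPM in it against 158 to 172 CPM in the others and Csf2 at 49.9 against 3.38 to 7.28 CPM. Lef1 was at 692 against 403 to 445 CPM, Dapl1 at 124 against 40.1 to 43.9 CPM and Slc16a3 at 36.2 against 17.5 to 20.6 CPM. The summed neuron genes were lower in it, at 6.06 against 12.6 to 13.8 CPM, and Adgre1 (1.48 CPM), C3 (0.148 CPM) and Ltf (0.074 CPM) were above 0 in it alone. C3 and Ltf were under the floor of 3 counts, which is 0.222 CPM in that library. Replicate 3 stood apart for Ccr7 (584 against 733 to 747 CPM), Swap70 (33.5 against 25.5 to 26.3 CPM) and S100a8 (0.636 against at most 0.074 CPM). Replicate 1 stood apart for Ikzf2 (26.8 against 8.66 to 11.2 CPM) and replicate 2 for Ly6g (0.431 CPM against 0).

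For 26 of the 99 genes described, the log2 Treg over Tconv difference was tested as different between CNS and dLN in edgeR's quasi-likelihood test. Over all genes tested it was so for 274 of 12473 (2.2%). Of the 99, 84 were called in the CNS comparison itself, so their share is raised by how they were chosen. The CNS minus dLN value was below 0 for Thy1 -1.33 (adjusted p = 0.035), Il2ra -1.72 (adjusted p = 0.03), Nrp1 -1.22 (adjusted p = 0.0023), Tnfrsf1b -1.14 (adjusted p = 0.021), Ahr -2.22 (adjusted p = 0.0019) and S100a4 -1.60 (adjusted p = 0.025). It was above 0 for Tnfrsf1a 1.48 (adjusted p = 0.011), Cx3cr1 4.07 (adjusted p = 0.0098), Fos 2.45 (adjusted p = 0.014), Irf7 1.76 (adjusted p = 0.011), Usp18 2.62 (adjusted p = 0.018) and Slc2a1 1.49 (adjusted p = 0.035). Genes of myeloid cells and antigen presentation had values of Lyz2 5.48 (adjusted p = 0.04), Adgre1 7.67 (adjusted p = 0.043), Cst3 2.49 (adjusted p = 1.4e-05), H2-DMa 2.40 (adjusted p = 0.0039), C3 7.71 (adjusted p = 0.015), Pla2g7 10.62 (adjusted p = 0.025) and Apoe 5.21 (adjusted p = 0.028). Genes on the neutrophil list had values of S100a8 9.46 (adjusted p = 0.004), S100a9 8.95 (adjusted p = 0.0091), Ltf 12.20 (adjusted p = 0.0033), Ngp 9.77 (adjusted p = 0.0048), Mmp8 13.71 (adjusted p = 0.015), Csf3r 11.76 (adjusted p = 0.022) and Il1b 14.17 (adjusted p = 0.0098). The call was made in all 13 fits that each left out 1 library for 12 of the 26 genes, and in at most 7 of 13 for Thy1, Il2ra, S100a4, Slc2a1, Lyz2, Adgre1 and Apoe.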

How the results depend on the processing

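The count of 1009 genes called in the control CNS became 2847 with T cell gene scaling, 1596 by DESeq2, 1560 by limma voom, 2411 in the fit of 25 libraries and 571 with a replicate block; leaving out 1 library gave 374 to 1185. Among genes of dLN T cells the count of 606 became 2264, 1045, 971, 1638 and 399 in the same order, and 226 to 705 without 1 library. Among genes under 1 CPM in dLN T cells the count of 204 became 52 with a filter of 10 CPM in 3 libraries, 332 in the fit of 25 libraries and 62 with the block, and 63 to 243 without 1 library. The 274 genes that differed between tissues became 723 by DESeq2, 750 by limma voom, 495 and 12 in the fits of 25 and 26 libraries, 533 with the block and 956 without the libraries whose names disagree with their labels, and 101 to 638 without 1 library. The 1290 genes of the icKO CNS became 2202 with T cell gene scaling, 446 in the fit of 26 libraries and 321 without such libraries, and 948 to 1400 without 1 library. The fits of 26 libraries include dLN Tconv replicate 3 of icKO mice (7.78 M counts, 6005 genes above 0). In the fit of 25 libraries without it, the icKO CNS count was 1698. T cell gene scaling turned the sign of Cd3e (0.07) and Cxcr3 (0.14), and Il17f was -0.43 by limma voom and -1.94 to 1.44 without 1 library; none of these was called. Of 84 called genes named here, none changed sign under any of the 17 settings run, and 0 to 21 lost their call per setting. The cause of these changes was not tested. Same-numbered control CNS samples did not deviate together (correlations 0.086, -0.051 and -0.015). Control pairs with different numbers gave -0.214 to 0.267, highest for Treg replicate 3 with Tconv replicate 4. Same-numbered samples of the icKO CNS gave 0.083, 0.192 and 0.181, each above every pair with different numbers there (at most 0.048). That is a hint from the data and not from the labels. As 1 of these 3 is under 0.1, the replicate block stays an alternative in which samples share a number. Transcripts at 0 in all Tconv libraries give only lower bounds, and 3 against 4 libraries limit every test.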
